A study of Mus musculus with 8 samples.

Results

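The granule and antimicrobial protein genes described here are Elane, Mpo, Ltf, Camp, Ngp, Lcn2, Cd177, Pglyrp1, S100a8 and S100a9, and they were read through every array probe annotated to 1 of these symbols alone. That gave 10 probes, 1 for each of the 10 genes, out of 18193 genes with such a probe among 45037 probes. The samples were 8 mammary tumours of female mice, 4 from mice given SKI606 (SKI-606, the Src and Abl kinase inhibitor bosutinib) by gavage at 100 mg/kg, made up with Tween 80 at 0.4% and methocellulose at 0.5%, and 4 from mice labelled vehicle-treated. All 8 came from MMTV-PyMT mice (FVB/N-Tg(MMTV-PyVT)634Mul/J), in which the mouse mammary tumour virus promoter drives the polyoma virus middle T antigen in mammary epithelium. The labels used here give no ages, and the RNA is of bulk tumour.

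Neutrophils store antimicrobial proteins in granules that form one after another as the cells mature in the bone marrow. The primary granules hold the protease elastase and myeloperoxidase, the secondary granules lactoferrin, cathelicidin and lipocalin-2, and the cytosol holds large amounts of the calcium-binding proteins S100a8 and S100a9, which pair as calprotectin. Transcripts of the primary and secondary granule proteins belong mainly to marrow precursors. Several of these genes are also used outside neutrophils: lactoferrin is a milk protein, lipocalin-2 is made by many epithelia, and keratinocytes make the S100 pair.

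The members fell into 4 kinds. Elane, Mpo, Camp and Ngp, the defining granule markers of the group, were dim in all 8 tumours. Their signals were at most 46, with at most 65.3% of an array's probes lower. Ltf and Lcn2 were among the brightest probes of every array. Cd177 and Pglyrp1 lay between these, with 74.8% to 90.5% of an array's probes lower than Cd177 and 88.9% to 97.3% lower than Pglyrp1. Both had lower means in SKI606 tumours, Pglyrp1 with no overlap of the groups, although no member passed the test over all probes. S100a8 and S100a9 varied widely among tumours of the same treatment.

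S100a8 and S100a9 lie near each other on chromosome 3, at chr3:90669071-90670034 and chr3:90692630-90695721 (GRCm38.p6). The 250 bases before their starts are shown because both genes were high in the same tumours, and those of Pglyrp1 because its groups did not overlap. They are RefSeq sequences of GRCm38.p6, written 5′ to 3′ on the strand of the gene, with capitals for the motif matches described after them. The windows are chr3:90668821-90669070 on the plus strand for S100a8, chr3:90695722-90695971 on the minus strand for S100a9 and chr7:18884440-18884689 on the plus strand for Pglyrp1.
S100a8: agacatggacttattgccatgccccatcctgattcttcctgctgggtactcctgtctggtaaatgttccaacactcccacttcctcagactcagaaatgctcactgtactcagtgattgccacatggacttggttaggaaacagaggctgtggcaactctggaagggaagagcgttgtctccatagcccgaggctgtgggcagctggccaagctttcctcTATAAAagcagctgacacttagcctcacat
S100a9: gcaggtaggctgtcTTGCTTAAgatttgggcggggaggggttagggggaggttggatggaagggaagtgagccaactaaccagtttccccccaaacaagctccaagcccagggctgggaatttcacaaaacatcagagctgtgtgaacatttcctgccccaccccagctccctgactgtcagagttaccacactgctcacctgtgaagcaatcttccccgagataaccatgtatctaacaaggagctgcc
Pglyrp1: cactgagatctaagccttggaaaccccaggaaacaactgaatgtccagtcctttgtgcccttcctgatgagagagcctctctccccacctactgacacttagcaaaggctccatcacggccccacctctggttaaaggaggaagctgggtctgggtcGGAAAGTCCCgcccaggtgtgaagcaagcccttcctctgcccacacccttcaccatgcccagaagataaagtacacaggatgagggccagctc

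All 10 members matched a promoter in the RefSeq table, and 5 motifs were searched on both strands of these 250 bases, with no match overlapping another. The TATA box letters TATAAA lay 30 to 25 bases before the start of S100a8 and were present in 2 of the 10 members, S100a8 and Cd177, against 12.4% of all 32851 promoters. The C/EBP letters TTGCNNAA, for a factor family that drives granule genes in maturing neutrophils, were present in 4 of 10 members, S100a9, Ltf, Lcn2 and Ngp, against 9.56% of all promoters. An NF-kB motif was present in Pglyrp1 alone, against 1.41% of all promoters. The AP-1 letters TGANTCA and the STAT letters TTCNNNGAA were present in 0 of 10 members, against 6.75% and 7.02% of all promoters. These matches describe letters in the windows and are not shown to be sites.

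The signals given here are whole-number probe signals recovered from the deposited ratios, on a scale where the median probe of an array had 15 to 23. Fold changes are log2 differences, SKI606 minus vehicle, ± SE, from limma on log2(signal + 16) after quantile normalization, with n = 4 in each group, a scale that understates the changes of dim genes. The labels describe RNA from each mouse without listing the animals, so p-values measure the spread between these samples. The epithelial genes Epcam, Krt8 and Krt18, read as a check of the tissue, had signals of at least 3145, 4202 and 4978 in every tumour. Over the 45037 probes limma called 0 at an adjusted p under 0.05 (0%), and 3771 (8.37%) had an unadjusted p under 0.05.

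**Figure D1:**
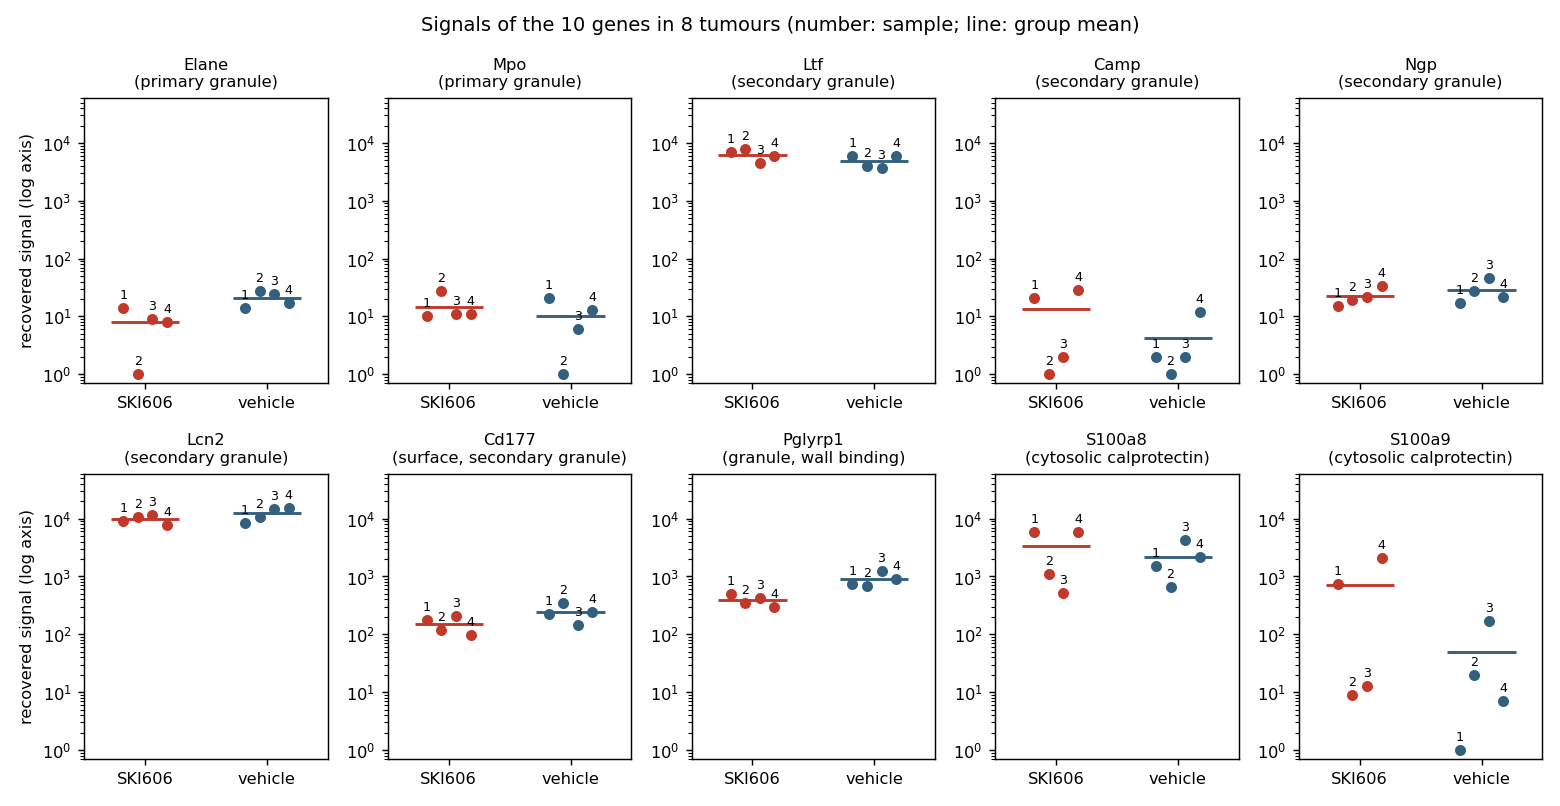
Recovered signal (log axis) of each of the 10 genes in 4 SKI606 and 4 vehicle tumours, with the sample number beside each point and a line at the group mean. Elane, Mpo, Camp and Ngp never passed 46, Ltf and Lcn2 never fell below 3690, and of the 10 genes Pglyrp1 alone has groups that do not overlap.

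The primary granule genes were dim in both groups. Elane (chr10:79886312-79888216), which encodes neutrophil elastase, had signals of 14, 1, 9 and 8 in SKI606 samples 1 to 4, against 14, 27, 24 and 17 in vehicle samples 1 to 4. The SKI606 values were the lower ones but touched the vehicle range, since sample 1 of each group had 14. The log2 fold change was -0.50 ± 0.20, with an unadjusted p of 0.0339 and an adjusted p of 0.574 in limma. Between 2.2% and 58.6% of an array's probes were lower than Elane, so the difference rests on values mostly at or below the array median. In a bulk sample, fewer cells of a type and less RNA per cell cannot be told apart.

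Mpo (chr11:87793784-87804412), which encodes myeloperoxidase, the enzyme that makes hypochlorous acid, had 10, 27, 11 and 11 in SKI606 samples, against 21, 1, 6 and 13 in vehicle samples. The groups overlapped, with SKI606 sample 2 the highest tumour and vehicle sample 2 the lowest. The log2 fold change was 0.36 ± 0.27 (limma adjusted p = 0.744).

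Of the secondary granule genes, Camp and Ngp were also dim. Camp (chr9:109847377-109849456), which encodes the cathelicidin antimicrobial peptide, had 21, 1, 2 and 29 in SKI606 samples, against 2, 1, 2 and 12 in vehicle samples. SKI606 samples 4 and 1 were the highest tumours, and SKI606 samples 2 and 3 were at the level of the lowest vehicle samples. The log2 fold change was 0.47 ± 0.33 (limma adjusted p = 0.724). Ngp (chr9:110419808-110423012), the neutrophilic granule protein gene, had 15, 19, 22 and 33 in SKI606 samples, against 17, 28, 46 and 22 in vehicle samples. The groups overlapped, and the difference was -0.16 ± 0.20 (limma adjusted p = 0.862).

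Ltf and Lcn2, whose proteins withhold iron from bacteria, were bright in every tumour. Ltf (chr9:111019292-111042766), the lactoferrin gene, had 6901, 7724, 4516 and 5898 in SKI606 samples, against 5974, 3921, 3690 and 5915 in vehicle samples. In these signals SKI606 samples 1 and 2 stood above every vehicle sample, and SKI606 samples 3 and 4 lay within the vehicle range. After quantile normalization SKI606 sample 4, at 7662, also stood above every vehicle sample. The means were 6260 ± 1382 in SKI606 and 4875 ± 1239 in vehicle tumours (SD, n = 4 each), and the log2 fold change was 0.57 ± 0.27 (unadjusted p of 0.0629, adjusted p of 0.613 in limma). With arrays scaled to a common trimmed mean instead, the log2 fold change was 0.37 (unadjusted p of 0.143 in limma). Between 99.1% and 99.8% of an array's probes were lower than Ltf.

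The milk protein gene Csn1s1, of the luminal and alveolar epithelium list, had 7797, 8532, 3833 and 6144 in SKI606 samples, against 6293, 1375, 2173 and 3589 in vehicle samples. Its groups overlapped, with SKI606 samples 2 and 1 highest. The brightest genes of that list had lower mean recovered signals in SKI606 tumours. Csn3 averaged 9941 in SKI606 and 13452 in vehicle tumours. Lalba averaged 6052 in SKI606 and 8828 in vehicle tumours, and Krt18 6107 in SKI606 and 7860 in vehicle tumours. After quantile normalization Csn3, Lalba and Krt18 stood at -0.0058 ± 0.12, -0.36 ± 0.35 and -0.11 ± 0.14. On that scale Csn1s1 stood at 1.30 ± 0.49 and Csn2 at 1.37 ± 0.81. Btn1a1, Muc1 and Mfge8 stood at 0.72 ± 0.40, 0.42 ± 0.21 and 0.40 ± 0.16. The summed signal of the 14 genes of that list lay between 48248 and 70877 in SKI606 and between 43617 and 74671 in vehicle tumours. None of the 14 was at 0 in any tumour, 9 had a log2 fold change above 0 and 5 below, and their part in the Ltf values was not tested.

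Lcn2 (chr2:32384637-32387739), the lipocalin-2 gene, whose protein binds bacterial siderophores, had 8929, 10602, 11494 and 7764 in SKI606 samples, against 8471, 10652, 14810 and 15560 in vehicle samples. Vehicle samples 4 and 3 were the highest and SKI606 sample 4 the lowest, and the groups overlapped. The direction of the difference depended on the scaling. After quantile normalization it was 0.03 ± 0.12, with a 95% confidence interval from -0.24 to 0.29 (limma adjusted p = 0.969). With arrays scaled to a common trimmed mean instead, the mean log2 values were 13.23 ± 0.25 in SKI606 and 13.55 ± 0.41 in vehicle tumours (SD, n = 4 each), a difference of -0.32 (limma adjusted p = 0.679). Between 7 and 28 probes were brighter than Lcn2 in an array, and quantile normalization gives probes of the same rank the same value in every array.

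**Figure D2:**
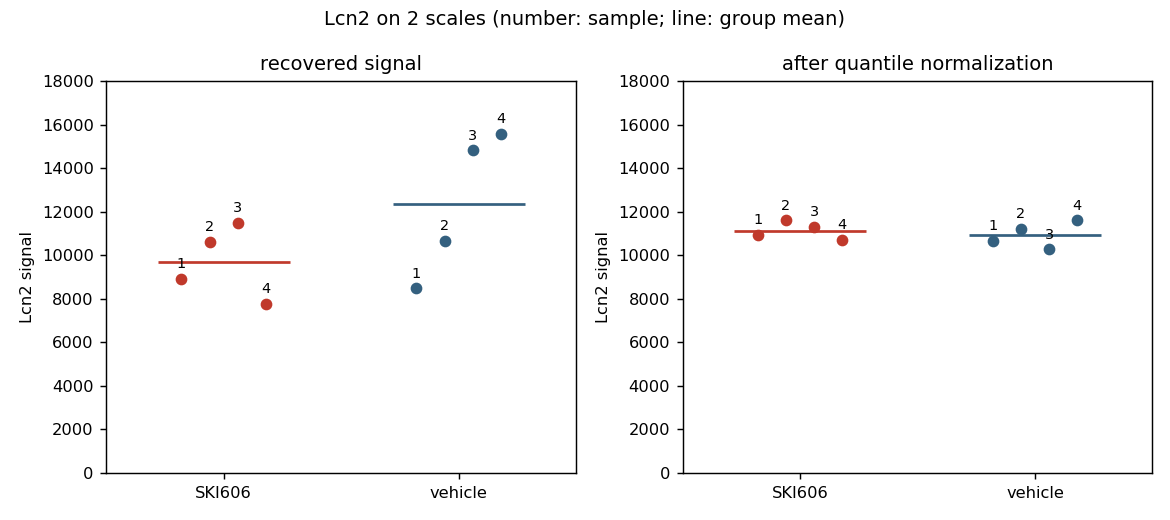
Lcn2 signal (linear axis from 0) in 4 SKI606 and 4 vehicle tumours as recovered (left) and after quantile normalization (right), with the sample number above each point and a line at the group mean. The recovered values run from 7764 to 15560 with vehicle samples 3 and 4 highest, and the normalized values lie between 10267 and 11597.

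Cd177 and Pglyrp1 had lower means in SKI606 tumours. Cd177 (chr7:24743983-24760334), which encodes a surface glycoprotein of neutrophils that is also stored in secondary granules, had 174, 120, 207 and 96 in SKI606 samples, against 222, 353, 144 and 246 in vehicle samples. Vehicle sample 3 fell among the SKI606 samples, and the other vehicle samples lay above all SKI606 samples. The means were 149 ± 50.5 in SKI606 and 241 ± 86.3 in vehicle tumours (SD, n = 4 each), and the log2 fold change was -0.68 ± 0.29 (unadjusted p of 0.0434, adjusted p of 0.587 in limma).

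Pglyrp1 (chr7:18884690-18890438), which encodes a granule protein that binds bacterial peptidoglycan, had 493, 345, 431 and 300 in SKI606 samples, against 750, 673, 1249 and 891 in vehicle samples. Every SKI606 tumour lay below every vehicle tumour. The means were 392.25 ± 86.4 in SKI606 and 891 ± 255 in vehicle tumours (SD, n = 4 each). The log2 fold change was -1.15 ± 0.23, a fold of 0.451 with a 95% confidence interval from 0.316 to 0.644. The unadjusted p was 0.000617 and the adjusted p over all probes 0.519 in limma, so it did not pass. Without SKI606 samples 1 and 4 and vehicle sample 3, the tumours with high squamous keratin signals described further on, the difference was -0.96 ± 0.19.

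Beside 1 of 10 members, 804 of 18193 genes (4.42%) had groups that did not overlap, 369 of them lower (2.03%) and 435 higher (2.39%) in SKI606 tumours. An unadjusted p under 0.05 was found for 3 of 10 members, Pglyrp1, Elane and Cd177, against 1889 of all genes (10.4%). All 3 were lower in SKI606 tumours, as were 784 genes (4.31%), while 1105 genes (6.07%) were higher. The median log2 fold change of the members was 0.19, with 6 above 0 and 4 below, and that of all genes was -0.02, with 9617 genes (52.9%) below 0. The members' median had no stable sign: it was 0.02 without SKI606 sample 1, -0.0085 without SKI606 sample 4, 0.03 with trimmed mean scaling and -0.11 without SKI606 samples 1 and 4 and vehicle sample 3, where 4 members were above 0 and 6 below.

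**Figure D3:**
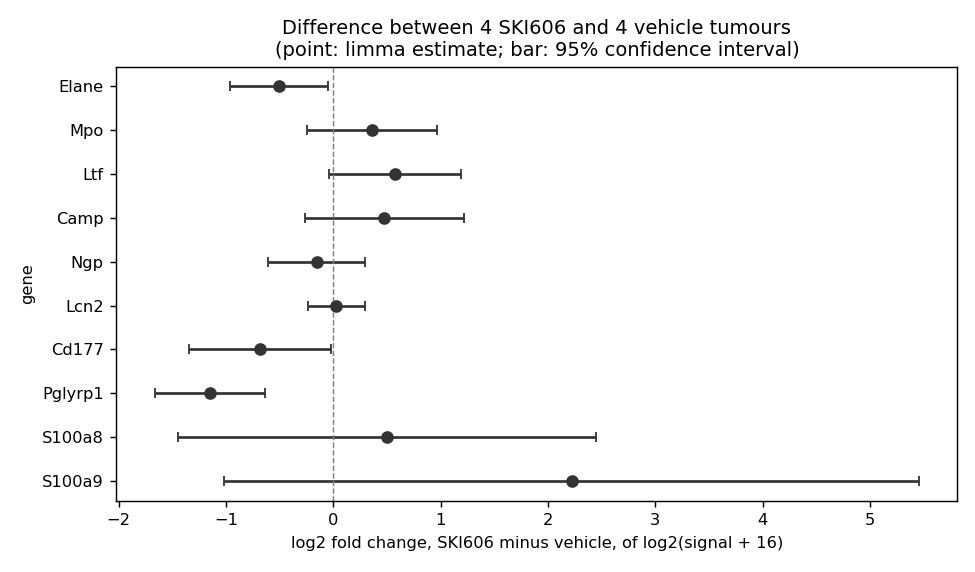
Log2 fold change, SKI606 minus vehicle, of the 10 genes on the scale of log2(signal + 16), as limma estimates (points) with 95% confidence intervals (bars), n = 4 in each group. The interval of Pglyrp1 runs from -1.66 to -0.63, and that of S100a9, the widest of the 10, from -1.02 to 5.46.

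S100a8 and S100a9, the subunits of calprotectin, which withholds zinc and manganese from microbes, split the tumours in a way that the treatment labels did not. S100a9 had 747, 9, 13 and 2046 in SKI606 samples, against 1, 20, 172 and 7 in vehicle samples. SKI606 samples 4 and 1 were high, vehicle sample 3 came next, and the other tumours of both groups were near the floor. The means were 704 ± 960 in SKI606 and 50 ± 81.7 in vehicle tumours (SD, n = 4 each), with SDs above the means. The log2 fold change was 2.22 ± 1.44, with a 95% confidence interval from -1.02 to 5.46 (limma adjusted p = 0.707). Without SKI606 samples 1 and 4 and vehicle sample 3 it was 0.20 ± 0.33. These were its 3 highest tumours, so that value describes the other tumours and tests nothing.

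S100a8 had 5763, 1098, 523 and 5926 in SKI606 samples, against 1502, 665, 4267 and 2205 in vehicle samples. The same 3 tumours were the highest, but none of the 8 was near the floor, as between 93.4% and 99.7% of an array's probes were lower. The means were 3328 ± 2917 in SKI606 and 2160 ± 1539 in vehicle tumours (SD, n = 4 each), and the log2 fold change was 0.50 ± 0.87 (limma adjusted p = 0.905). Without those 3 tumours it was -0.73 ± 0.54, the opposite direction. As these were the highest tumours, that value describes the others and tests nothing. The log2 fold change was -0.004 without SKI606 sample 1 alone and -0.06 without SKI606 sample 4 alone. The S100a8 probe is of a type that can match several transcripts, and it is annotated to S100a8 alone.

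The squamous keratinocyte genes were high in the same 3 tumours. Krt6b, a keratin of activated epidermis, had 3190, 2, 7 and 3708 in SKI606 samples, against 16, 2, 2132 and 3 in vehicle samples. Sprr1a, a precursor of the cornified envelope, had 3866, 21, 17 and 3702 in SKI606 samples, against 20, 40, 2265 and 242 in vehicle samples. In 14 of the 18 measured genes of the squamous list SKI606 samples 1 and 4 and vehicle sample 3 were the highest 3 tumours, against 743 of all genes (4.08%). The summed signal of the list lay between 721 and 23415 in SKI606 and between 1534 and 16593 in vehicle tumours. Flg was at 0 in SKI606 samples 2 and 3 and Krtdap in SKI606 sample 2, and the part of squamous tissue in the S100 values was not tested.

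The genes most like each member were taken by Pearson correlation of normalized log2 values over the 8 tumours, among 7259 other genes with a mean signal of at least 100. The 8 points share their arrays and their treatment groups, so the values of r are descriptions. For S100a9 the closest were Krtap4-1, a hair keratin-associated protein gene, Krt26, a hair follicle keratin gene, and Gm11559, with r of 0.995, 0.995 and 0.994. Krtap4-1 had 872, 1, 6 and 1696 in SKI606 samples, against 2, 11, 130 and 2 in vehicle samples, so the 3 highest tumours were those of S100a9. For S100a8 the closest were Sfn, an epithelial 14-3-3 protein gene, Klk10, a kallikrein gene, and Dmkn, which encodes the epidermal protein dermokine, with r of 0.976, 0.975 and 0.972.

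For Ltf the closest were Nadk, which encodes NAD kinase, Pitpna, which encodes a lipid transfer protein, and Cd14, which encodes a co-receptor for lipopolysaccharide, with r of 0.968, 0.962 and 0.958. Cd14 had 3992, 2537, 1361 and 3147 in SKI606 samples, against 2238, 1235, 957 and 1871 in vehicle samples, with SKI606 sample 1 highest and vehicle sample 3 lowest. For Pglyrp1 the closest were Phactr4, Gfer and Cdc42bpg, with r of 0.975, 0.966 and 0.960. For Cd177 they were Prdx2, Ceacam10 and Rnf5, with r of 0.955, 0.954 and 0.953, and for Lcn2 they were Ten1, Rab10os and Pcf11, with r of 0.975, 0.949 and 0.931. No gene was named for more than 1 member, and Elane, Mpo, Camp and Ngp were too dim for this comparison.

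**Figure D4:**
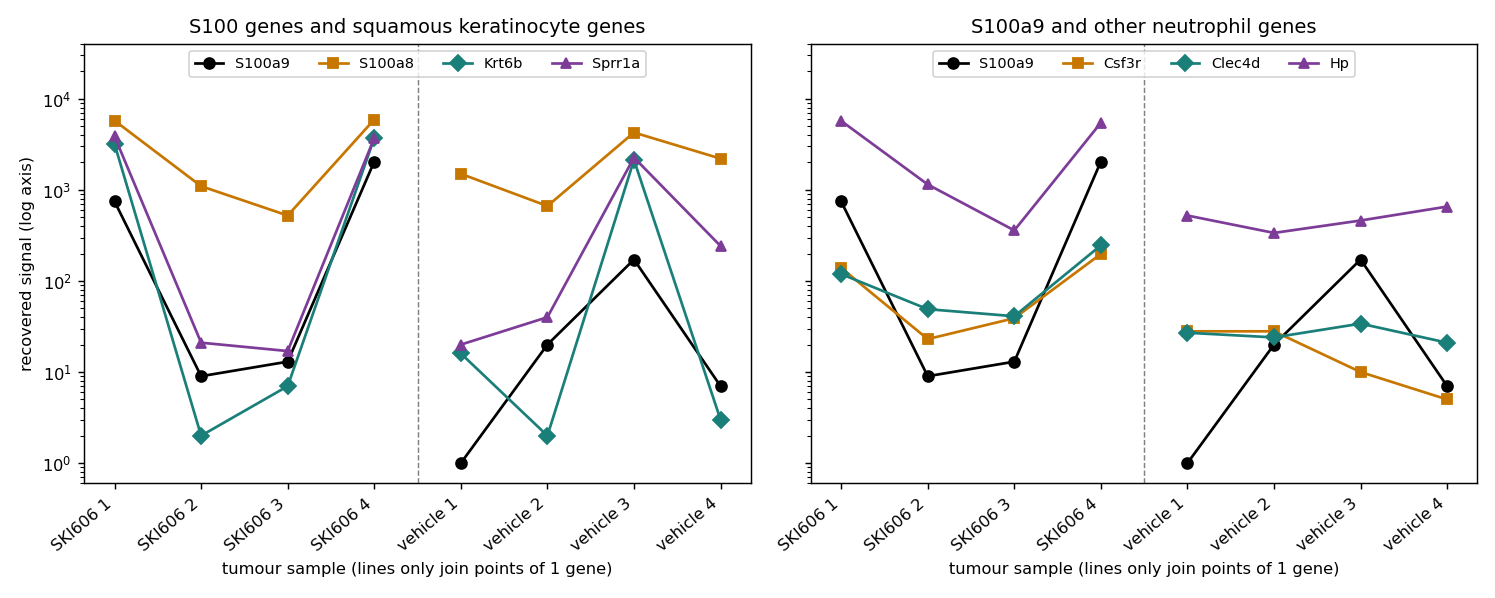
Recovered signals (log axis) in SKI606 samples 1 to 4 and vehicle samples 1 to 4 for S100a9, S100a8 and the squamous genes Krt6b and Sprr1a (left) and for S100a9 and the neutrophil genes Csf3r, Clec4d and Hp (right). S100a9 and Krt6b are high in SKI606 samples 1 and 4 and in vehicle sample 3, where Csf3r is at 10, Clec4d at 34 and Hp at 461.

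Other neutrophil genes were set beside the members, and 27 of 35 were measured. Of the 27, 22 had a log2 fold change above 0 and 5 had one below it. Their median was 0.64. An unadjusted p under 0.05 was found for 11, all higher in SKI606 tumours, where 1105 of all genes (6.07%) were, and 0 passed over all probes. SKI606 samples 1 and 4 were the highest 2 tumours in 16 of the 27, against 1971 of all genes (10.8%), and in 3 of the 10 members, S100a8, S100a9 and Camp. Without SKI606 samples 1 and 4 and vehicle sample 3 the median was 0.06, and 3 genes were higher and 1 lower at an unadjusted p under 0.05. Of all 18193 genes, 728 had such a p in either direction there, against 1889 with every sample kept. Without SKI606 sample 1, SKI606 sample 4 or vehicle sample 3 alone, 6 of the 27 genes had an unadjusted p under 0.05. Over all genes the counts were 1267, 1086 and 1313 in that order, so they fell as well.

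Csf3r, the receptor gene for the granulocyte growth factor, had 139, 23, 39 and 198 in SKI606 samples, against 28, 28, 10 and 5 in vehicle samples (1.58 ± 0.52). Clec4d, a myeloid lectin receptor gene, had 119, 49, 41 and 246 in SKI606 samples, against 27, 24, 34 and 21 in vehicle samples (1.38 ± 0.42). The cytokine gene Il1b had 132, 63, 129 and 351 in SKI606 samples, against 35, 55, 50 and 23 in vehicle samples (1.53 ± 0.41). SKI606 sample 4 was the highest tumour for all 3. Vehicle sample 3, high for S100a9, was within the range of the other vehicle samples for Csf3r and Il1b. For Clec4d it was the highest vehicle sample. In 5 of the 27 genes, Mmp9 among them, SKI606 samples 1 and 4 and vehicle sample 3 were the highest 3 tumours. That was 18.5%, against 4.08% of all genes. The groups did not overlap for 4 of the 27, Clec4d, Il1b, Ctsg and Cybb, all higher in SKI606 tumours. Over all genes 2.39% were apart in that direction. Ctsg, which encodes cathepsin G, a primary granule protease like elastase, had 92, 17, 23 and 20 in SKI606 samples, against 2, 11, 15 and 3 in vehicle samples (1.14 ± 0.35), and Trem1, an activating receptor gene, stood at 0.73 ± 0.24. The limma adjusted p was 0.528 for Il1b and 0.558 for Csf3r, Clec4d, Ctsg and Trem1.

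The brightest genes of that list were S100a6, Hp and Fcgr3, and none of them belongs to neutrophils alone. Hp, the haptoglobin gene, had 5722, 1147, 359 and 5458 in SKI606 samples, against 523, 337, 461 and 656 in vehicle samples (2.10 ± 0.84). It was high in SKI606 samples 1 and 4, as S100a9 was, but not in vehicle sample 3. S100a6 and Fcgr3 stood at 0.89 ± 0.36 and 0.73 ± 0.37. The granule genes Mmp8, Olfm4 and Chil3, picked here after their values were seen, had signals of at most 31 in every tumour, as dim as Elane, Mpo and Camp. Prtn3, another primary granule protease gene picked in that way, had 159 to 357 in SKI606 and 191 to 416 in vehicle tumours (-0.25 ± 0.29).

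The summed signal of the 27 genes lay between 5261 and 15235 in SKI606 and between 2742 and 5946 in vehicle tumours. Macrophages express several of them, among them Itgb2, Cybb and Fcgr3. The 10 measured macrophage markers had log2 fold changes above 0 in 10 of 10, with summed signals between 8005 and 14936 in SKI606 and between 4642 and 8961 in vehicle tumours and none at 0. At an unadjusted p under 0.05, 4 of the 10 were higher, and the groups did not overlap for 2. Without SKI606 samples 1 and 4 and vehicle sample 3, 4 of the macrophage markers were above 0 and 6 below, with a median of -0.02. The 5 measured monocyte markers were above 0 in 5 of 5, with sums between 1232 and 3855 in SKI606 and between 1354 and 2041 in vehicle tumours, and without the 3 tumours in 2 of 5. The 11 T and NK cell markers were above 0 in 11 of 11, with a median of 0.67. Most were dim, with 1 of the 11 at a mean signal of at least 50. Of these 11, 7 were higher at an unadjusted p under 0.05, 7 had groups that did not overlap, and 0 passed the threshold. Both counts were 0 for the monocyte markers. Over all genes 6.07% were higher at an unadjusted p under 0.05, and 2.39% had groups apart with SKI606 higher. The T and NK sums lay between 330 and 420 in SKI606 and between 110 and 262 in vehicle tumours. Without the 3 tumours the T and NK median was 0.53, where that of the neutrophil genes was 0.06. The 3 tumours are those high in S100a9 and the squamous genes. SKI606 samples 1 and 4 were the highest 2 in 16 of 27 neutrophil, 8 of 10 macrophage and 5 of 11 T and NK genes. The lists thus depend on these samples to unlike degrees, and the medians do not compare the cell types. The part of these cell types in the neutrophil list was not tested. The 6 measured red blood cell genes had signals of at most 41 in every tumour, too dim to compare blood content.

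Of the genes that draw neutrophils into tissue or make them grow, 12 of 12 had log2 fold changes above 0, with a median of 0.32, 3 of them higher at an unadjusted p under 0.05, where 6.07% of all genes were, and 0 past the threshold. Most were dim, with 2 of the 12 at a mean signal of at least 50, and Csf3, which encodes the granulocyte growth factor and stood at 0.18 ± 0.52, had mean signals of 34.5 in SKI606 and 40 in vehicle tumours before normalization. Without SKI606 samples 1 and 4 and vehicle sample 3, 9 were above 0 and 3 below, with a median of 0.10 and 0 at an unadjusted p under 0.05. SKI606 samples 1 and 4 were the highest 2 tumours in 6 of the 12 genes, against 10.8% of all genes. Leaving them out lowers such genes, so these values only describe the other tumours. The chemokine gene Cxcl1 had 182, 86, 102 and 321 in SKI606 samples, against 60, 87, 31 and 58 in vehicle samples (1.23 ± 0.40). Cxcl5, another ligand of the receptor Cxcr2, had 125, 16, 25 and 349 in SKI606 samples, against 3, 17, 11 and 9 in vehicle samples (1.92 ± 0.66). Ccl3, a chemokine gene of myeloid cells, had 73, 8, 11 and 93 in SKI606 samples, against 4, 8, 6 and 10 in vehicle samples (1.18 ± 0.45). All 3 were highest in SKI606 samples 4 and 1, and SKI606 sample 2 lay within the vehicle range for each. Cxcl2 and Ppbp stood at 0.75 ± 0.34 and 0.36 ± 0.18.

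Of the other antimicrobial protein genes 16 of 21 were measured, 9 of them above 0 and 7 below it. Their median was 0.24. An unadjusted p under 0.05 was found for 3, all higher in SKI606 tumours, where 6.07% of all genes were, namely the lysozyme genes Lyz1 (0.73 ± 0.31) and Lyz2 (0.95 ± 0.41), close copies whose probes may not tell them apart, and the lipopolysaccharide binding protein gene Lbp (0.32 ± 0.14). The count was 1 with trimmed mean scaling, with a pseudocount of 64 and without SKI606 sample 4, and 0 on the deposited ratios, with a pseudocount of 4, without SKI606 sample 1, without vehicle sample 2, 3 or 4, and without SKI606 samples 1 and 4 and vehicle sample 3. The defensin gene Defb3 had 114, 1, 3 and 329 in SKI606 samples, against 2, 1, 3 and 1 in vehicle samples, so SKI606 samples 1 and 4 alone stood above the floor. Slpi, which encodes an inhibitor of neutrophil elastase, had 4089, 656, 971 and 4406 in SKI606 samples, against 446, 681, 1106 and 1086 in vehicle samples (1.31 ± 0.65). Again SKI606 samples 4 and 1 were the highest. Wfdc18 and Saa1, the brightest of the list with Lyz1, stood at -0.04 ± 0.13 and -0.04 ± 0.26 after quantile normalization, which sets top ranks alike as for Lcn2. Their mean recovered signals were 9270.5 in SKI606 and 12411.5 in vehicle tumours for Wfdc18, and 5972 in SKI606 and 7925 in vehicle tumours for Saa1.

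**Figure D5:**
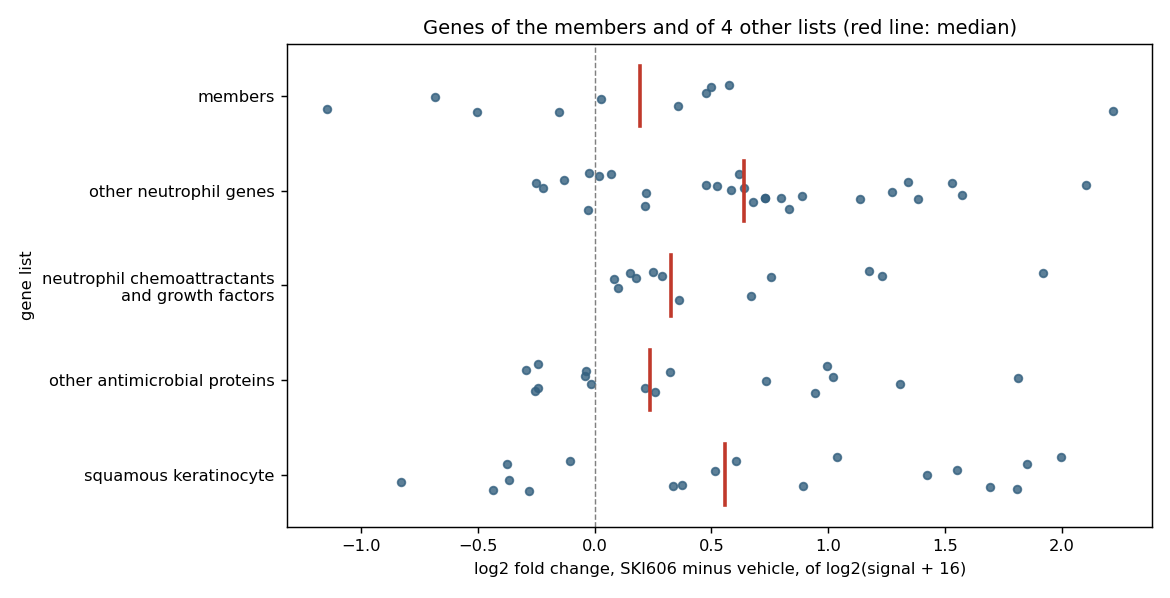
Log2 fold changes, SKI606 minus vehicle, of log2(signal + 16) for each measured gene of the 10 members and of other lists (points), with a line at each list's median. The members spread from -1.15 (Pglyrp1) to 2.22 (S100a9), and all 12 chemoattractant and growth factor genes lie above 0 on this scale with all 8 tumours.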

How the data were processed

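Tumour RNA was read on 1 Affymetrix mouse array per sample, 4 SKI606 and 4 vehicle, grouped by sample title. The deposited values are linear ratios. For the authors' scanning and scaling steps, software is not given in the sources used here. In 58.08% of 45101 probes the median ratio over the arrays was 1 (within 0.0001), as division by array and probe medians gives, and the others had a constant divisor. Whole-number signals were recovered as the smallest that give the ratios; they returned 100% of the deposited probes, and 99.54% of 5000 simulated probes were recovered. The trimmed mean signal was 99.82 to 99.84 in every array, and 27.8% to 41.6% of signals were below 10.

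Signals were quantile normalized, 16 was added, log2 was taken and limma 3.58.1 (R 4.3.3) was fitted to 45037 probes, without 64 control probes, with Benjamini-Hochberg adjustment at 0.05; the code was tested on simulated data. The platform annotation gave 34945 probes 1 symbol and 932 several, and 9160 are unnamed here. A gene's value is that of its probe of highest mean. Alternatives were trimmed mean scaling, log2 of the deposited ratios, pseudocounts of 4 and 64, a minimum mean signal of 50, the mean over a gene's probes, the replicate number as a block, array weights, and leaving out 1 or 3 samples. Named were all 10 members, up to 5 genes of smallest p per list, the brightest 3 of a list set beside a member, and the 3 genes most like each member with a mean signal of at least 100; other genes were picked after their values were seen. Members and lists were chosen with earlier results of these data known. The number of arrays limits the precision.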

Additional observations from a re-analysis of the deposited data

Results flagged for a closer look

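Among 20 sets of 4 normalized log2 values (10 genes in 2 groups), 3 held a sample whose gap to its nearest neighbour, as a share of the set's range, was above Dixon's 95% limit for 4 samples, and chance flags about 1 in 20. Mpo in SKI606 sample 2 stood high, with a share of 0.849 and a recovered signal of 27 against 10, 11 and 11 in the other SKI606 samples, all dim. Ltf in SKI606 sample 3 stood low, with a share of 0.854 and a recovered signal of 4516 against 5898 to 7724 in the other SKI606 samples. Camp in vehicle sample 4 stood high, with a share of 0.837 and a recovered signal of 12 against 1 or 2 in the other vehicle samples.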

How the results depend on the processing

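No member passed the adjusted threshold in any of 16 alternatives, and Pglyrp1, Cd177, Elane, Mpo, Ltf and S100a9 kept their direction in those that measured them. The log2 fold change of Pglyrp1 ranged from -1.27 to -0.96 and its limma adjusted p from 0.271 to 1. Members at an unadjusted p under 0.05 numbered 3, against 1 on the log2 of the deposited ratios and 1 to 4 with 1 sample left out (1 without SKI606 sample 2 and 1 without vehicle sample 2). Members with groups that did not overlap numbered 1, against 3 without SKI606 samples 1 and 4 and vehicle sample 3 (Pglyrp1, Cd177 and Elane, 2 samples against 3, where 15.3% of genes did not overlap) and 1 to 2 with 1 sample left out (2 without SKI606 sample 1, SKI606 sample 3 or vehicle sample 3). Without the 3 samples Camp turned to -0.20 and S100a8 to -0.73. Those 3 were the highest tumours for S100a8, and SKI606 samples 4 and 1 were the highest for Camp. These 2 values thus describe the other tumours and test nothing. With 1 sample left out S100a8 ranged from -0.064 to 1.213 (-0.004 without SKI606 sample 1), Ngp from -0.26 to 0.001 and Lcn2 from -0.001 to 0.057. Lcn2 was -0.32 with trimmed mean scaling and -0.19 on the deposited ratios. The cause of these reversals was not tested. The median of the other neutrophil genes, 0.64, was 0.0567 without the 3 samples, 0.39 without SKI606 sample 4, 0.32 with a pseudocount of 64 and 1.08 with a mean signal of at least 50. The members' median ranged from -0.11 to 0.26. Other neutrophil genes at an unadjusted p under 0.05 numbered 11. That count was 7 with trimmed mean scaling, 6 on the deposited ratios and 7 with a pseudocount of 64. It was also 7 with a mean signal of at least 50 (12 genes measured), 4 without the 3 samples and 6 to 16 with 1 sample left out. The alternatives for this count were chosen after seeing the data. Over all 18193 genes the count was 1889, against 1841 with trimmed mean scaling, 1195 on the deposited ratios and 728 without the 3 samples. With 1 sample left out it ran from 1086 (without SKI606 sample 4) to 2691 (without SKI606 sample 2). With the replicate number as a block, Pglyrp1 was -1.15 (limma unadjusted p of 0.000988), 2 members had an unadjusted p under 0.05, namely Pglyrp1 and Ltf (p of 0.0149), Elane and Cd177 no longer did (p of 0.0744 and 0.0824), and 0 passed the adjusted threshold. Same-numbered samples did not deviate together, with correlations of 0.010, 0.181, -0.325 and -0.185 for numbers 1 to 4, so the numbers are not taken to pair them. Low signals limit what can be said of Elane, Mpo, Camp and Ngp.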

Other observations

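Granule genes of other granulocytes were read in the same tumours. Mcpt4, a mast cell protease gene, had 146, 87, 40 and 121 in SKI606 samples, against 54, 3, 5 and 39 in vehicle samples (1.59 ± 0.49, unadjusted p of 0.00966 and adjusted p of 0.558 in limma). Cpa3, the mast cell carboxypeptidase gene, had 67, 70, 33 and 102 in SKI606 samples, against 49, 29, 26 and 38 in vehicle samples (0.68 ± 0.27). Vehicle sample 1 was the highest vehicle tumour for both and lay above SKI606 sample 3. The eosinophil granule genes Epx and Prg2, picked after their values were seen, reached at most 17 and 10 in SKI606 tumours and at most 16 and 18 in vehicle tumours, near the floor. Of the 9 measured genes of mast cells, basophils and eosinophils 5 were above 0 and 4 below, 2 were higher at an unadjusted p under 0.05, where 6.07% of all genes were, and 0 passed over all probes. That count was 0 without SKI606 samples 1 and 4 and vehicle sample 3, 1 without SKI606 sample 1, 2 or 4, without vehicle sample 2 or 3 and on the deposited ratios, and 4 without SKI606 sample 3, without vehicle sample 1 and with the replicate number as a block.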
